A study of Mus musculus with 14 samples.

Results

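The chromatin contacts described here are those of the protein-coding histone genes on mouse chromosome 13, in the build mm10. Members were all protein-coding genes of the RefSeq table (assembly GRCm38.p6) in a window around the cluster, from chr13:21715711 to 23764412 by the outermost members, whose symbols start with H1f, H2ac, H2bc, H3c or H4c, or Hist1 in older names, and they came to 52 of 21900 protein-coding genes. They lie in 28 bins of 10 kb, and a contact counted as a histone contact when at least 1 of its bins was 1 of these 28. The widest gap between neighbouring members, 1487 kb, splits them into a first subcluster of 23 genes in 12 bins (21715711 to 22043658) and a second of 29 genes in 16 bins (23531044 to 23764412). By type the members are 6 H1, 12 H2A, 14 H2B, 9 H3 and 11 H4 genes. The first subcluster holds 1 of the H1 genes (H1f5) and 2 of the H3 genes, and the second holds 5 H1 and 7 H3 genes. The gene that the table calls H4bc24 was formerly Hist1h2br and was counted as an H2B gene. The median member is 491 bp long, and the longest gene model, that of H2bc6, is 37455 bp and crosses 5 bins.

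Core histones H2A, H2B, H3 and H4 form the octamer around which DNA is wound, and the linker histone H1 binds where DNA enters and leaves it. Most of the genes described here supply the histones that a dividing cell needs when it copies its genome. They are typically short, lack introns, end their mRNAs in a stem-loop in place of a poly(A) tail, and are switched on together in S phase. Their promoters are gathered in a nuclear compartment, the histone locus body, which is organised by the factor NPAT. CTCF is a DNA-binding protein that stops cohesin and so anchors many chromatin loops.

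The assay was H3K4me3 PLAC-seq, in which DNA ligated to its spatial neighbours is immunoprecipitated with an antibody to histone H3 trimethylated at lysine 4, a mark of active promoters. The cells were F123 mouse embryonic stem cells (ESCs) whose CTCF carries an auxin-inducible degron (CTCF-AID) in all 4 groups used, and neural precursor cells (NPCs) differentiated from them and taken on day 4. ESC control had auxin for 0 h and ESC auxin for 48 h (500 mM stock, 1 µl to each ml), NPC control was differentiated without auxin, and NPC auxin with it. Of 14 samples in 7 groups, 8 samples in these 4 groups were used, 2 per group, and the 6 samples with dCas9 were not analysed here. Each group came as 1 list of called contacts per caller, from the 2 callers MAPS and FitHiChIP, and without lists per sample no difference could be set against a spread over replicates. Whether the labelled cells kept CTCF, and in how many cells, was not measured by these lists. The labels do not say how many clones the degron line comes from.

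The lists held 56714, 27610, 82861 and 41667 MAPS contacts in ESC control, ESC auxin, NPC control and NPC auxin, and 33475, 22705, 44892 and 24836 FitHiChIP contacts. Total contacts ran from 47519917 in ESC control to 59961568 in NPC auxin. All values below in runs of 4 follow that order of groups. Of 5 ESC marker genes, 4 had a bin marked as an H3K4me3 peak in ESC control and 3 in NPC control, and of 5 NPC marker genes 4 and 5 did; 1 marker of each kind was in no contact of the other cell type. Among markers listed in both controls, the peak mark differed at Dppa4 alone, which was marked in ESC control and not in NPC control. The marks of Esrrb in NPC control and of Sox11 in ESC control are unknown, since neither was in a contact there. The 5 ESC markers together had 6 MAPS contacts in ESC control and 10 in NPC control, and the 5 NPC markers 38 and 97. Single markers went both ways: Sox11, a neural transcription factor, had 0 and 47, while Nes had 8 and 2 and Hes5 3 and 2. Pou5f1, an ESC marker, had 1 and 3.

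The promoters were read for the sequence elements that histone genes are known for. Of the 52 members, 49 had an entry in RefSeq's promoter table (H3c7, H2bc4 and H3c1 had none), with 50 entries in all, and the 150 bases before each start were searched on both strands for 3 motifs: TATAAA, which the basal machinery reads, then CCAAT, which is bound by NF-Y, and the octamer ATTTGCAT, which is bound by OCT factors. No motif contains another. CCAAT was present in 42 of 50 promoters (84.0%) against 24.5% of 32851 promoters of the table: in all H1, H2A, H2B and H3 promoters and in 3 of 11 H4 promoters. TATAAA was present in 19 (38.0%) against 7.57%, and ATTTGCAT in 8 (16.0%, namely 5 of 14 H2B and 3 of 12 H2A promoters) against 0.998%. In addition, among members with an entry, 9 H2A genes start back to back with an H2B gene, 163 to 267 bases apart (median 179). Such a pair shares its promoter bases. A match describes these letters only. The promoters below are, for each core type and subcluster, those of the member with most MAPS contacts in its bin, among members with an entry. These promoters show how the shared elements differ by type. Capitals mark the 3 motifs on either strand, so a motif on the opposite strand appears as its reverse complement. They lie at chr13:21716262-21716411 (plus strand), chr13:21716184-21716333 (minus), chr13:21717478-21717627 (plus) and chr13:21734884-21735033 (plus) in the first subcluster, and chr13:23683960-23684109 (minus), chr13:23585971-23586120 (minus), chr13:23752195-23752344 (plus) and chr13:23581418-23581567 (plus) in the second, all in GRCm38.p6 and written 5′ to 3′.
H2ac13: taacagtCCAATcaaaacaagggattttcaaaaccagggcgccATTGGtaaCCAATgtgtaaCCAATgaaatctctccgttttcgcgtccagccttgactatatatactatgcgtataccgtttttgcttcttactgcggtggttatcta
H2bc13: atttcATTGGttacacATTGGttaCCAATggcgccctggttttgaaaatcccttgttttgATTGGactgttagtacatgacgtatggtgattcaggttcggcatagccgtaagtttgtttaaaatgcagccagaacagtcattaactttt
H3c10: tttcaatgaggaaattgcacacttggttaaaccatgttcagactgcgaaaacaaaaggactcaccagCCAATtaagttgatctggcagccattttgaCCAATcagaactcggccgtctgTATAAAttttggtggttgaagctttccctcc
H4c11: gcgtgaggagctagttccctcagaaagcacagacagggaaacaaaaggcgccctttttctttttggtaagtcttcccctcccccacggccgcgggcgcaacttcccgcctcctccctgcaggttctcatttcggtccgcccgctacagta
H2ac6: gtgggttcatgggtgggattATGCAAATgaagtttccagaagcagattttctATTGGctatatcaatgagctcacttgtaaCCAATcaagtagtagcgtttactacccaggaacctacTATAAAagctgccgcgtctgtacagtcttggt
H2bc6: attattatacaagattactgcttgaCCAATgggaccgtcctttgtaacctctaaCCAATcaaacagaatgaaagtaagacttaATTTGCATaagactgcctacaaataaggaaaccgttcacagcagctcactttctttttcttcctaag
H3c2: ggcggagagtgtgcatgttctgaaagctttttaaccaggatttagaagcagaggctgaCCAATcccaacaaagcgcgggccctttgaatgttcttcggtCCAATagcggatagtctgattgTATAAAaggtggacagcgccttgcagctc
H4c4: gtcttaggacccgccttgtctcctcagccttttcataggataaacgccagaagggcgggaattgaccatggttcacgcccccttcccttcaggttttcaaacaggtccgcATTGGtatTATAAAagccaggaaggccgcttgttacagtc

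H2ac13 and H2bc13, which code for H2A and H2B, are such a back-to-back pair, and their stretches hold the same 4 CCAAT matches read from opposite strands. H3c10 and H3c2, which code for H3, each have 2 CCAAT matches and 1 match to TATAAA. H4c11 holds none of the 3 motifs. Their bins carried 65 MAPS contacts over the 4 lists for H2ac13, H2bc13 and H3c10, which share a bin, 23 for H4c11, 21 for H2ac6, 18 for H4c4 and H2bc6, and 15 for H3c2.

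Histone contacts made up a larger share of each list after auxin than before it, in both cell types and with both callers. MAPS listed 51, 37, 75 and 68 histone contacts, or 0.0899%, 0.134%, 0.0905% and 0.163% of the lists. FitHiChIP listed 317, 288, 501 and 482, or 0.947%, 1.27%, 1.12% and 1.94%. The difference between callers is in part one of range, since MAPS lists end at 1000 kb and FitHiChIP lists at 2000 kb, and the closest bins of the 2 subclusters are 1490 kb apart. Over 1000 kb lay 71.9%, 75.3%, 79.4% and 80.7% of FitHiChIP histone contacts, against 15.5% to 25.0% of the whole lists. With auxin, contacts over 1000 kb also rose from 17.5% to 25.0% of the FitHiChIP list in ESCs, and their share rose in NPCs. Contacts with both bins marked as peaks likewise rose, from 26.4% to 36.2% of the MAPS list in ESCs and 19.1% to 26.6% in NPCs. A larger share with auxin was thus not particular to histone contacts. Pairs between the subclusters were 1.83% of FitHiChIP contacts over 1000 kb in both ESC lists, and 2.08% and 2.50% in the NPC lists. The plot of contacts by class gives both callers side by side.

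**Figure D1:**
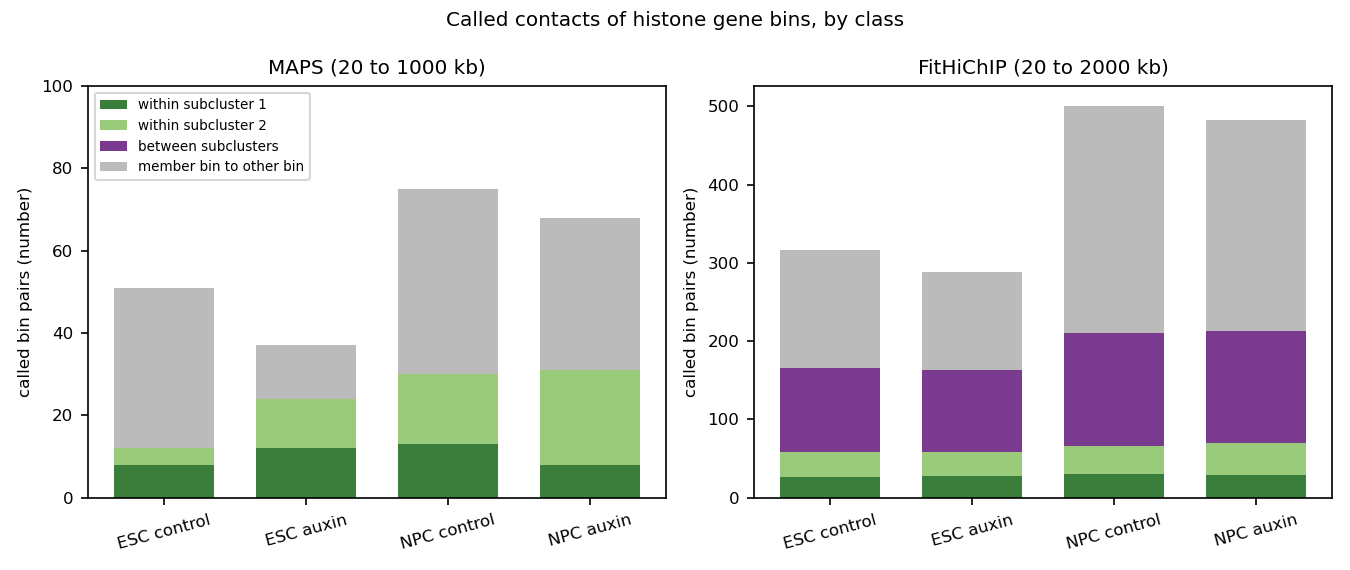
Number of called bin pairs (y axis) in each of the 4 lists (x axis) of MAPS (left) and FitHiChIP (right), stacked by class. The between-subcluster class holds 107, 104, 145 and 143 pairs in FitHiChIP and cannot occur in MAPS, whose lists end at 1000 kb.

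Contacts between the 2 subclusters were the largest class of histone-to-histone pairs in FitHiChIP, and NPCs had more of them than ESCs. Of 180 pairs of bins within 2000 kb, FitHiChIP listed 107 (59.4%), 104 (57.8%), 145 (80.6%) and 143 (79.4%). In all, 151 pairs were in any list and 94 in all 4. Both NPC lists and no ESC list held 26 pairs, and no pair was in an ESC list and absent from both NPC lists. The NPC control list was also longer: relative to the list totals the change from ESC to NPC control was 0.02 on the log2 scale (95% interval -0.36 to 0.39), and between the auxin lists 0.33 (-0.04 to 0.71).

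Pairs were listed more often among histone bins than between these and their neighbours. Where both histone bins were marked as H3K4me3 peaks, 77.1%, 80.9%, 95.2% and 96.2% of the possible pairs were listed; with 1 marked bin the shares were 28.6%, 24.2%, 68.2% and 63.6%. For a histone bin of one span with another marked bin of the other span, both marked, the shares were 20.9%, 21.0%, 45.6% and 40.5%. The neighbours of the first span include 16 marked bins without a histone gene. Marked non-histone bins of the second span numbered 0, 1, 1 and 1, so only 0, 16, 16 and 16 pairs of marked neighbours were possible, and 0 were listed.

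The highest counts all ended in 1 of 2 bins of the second subcluster. The bin of H2bc13, H2ac13 and H3c10 (chr13:21710001-21720000) met the bin of H2ac8, H2bc8, H2bc7, H2ac7 and H3c4 (chr13:23570001-23580000) with 76, 71, 348 and 303 contacts, 1860 kb apart. The H1f5 bin with H3c11, H2ac22 and H2bc22 (chr13:21780001-21790000) met the same H2ac8 bin with 94, 59, 337 and 301 contacts. The H2ac8 bin holds 5 genes of types H2A, H2B and H3, more than any other member bin.

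The bin of H4c8, H2ac10 and H3c8 (chr13:23530001-23540000), the first of the second subcluster, met the H2bc13 bin with 82, 93, 300 and 271 contacts and the H1f5 bin with 66, 58, 238 and 271. The H2ac12 and H2bc12 bin (chr13:22030001-22040000) met the H2ac8 bin with 89, 79, 293 and 272 contacts. In each of these pairs both NPC values exceeded both ESC values by more than 2 times, and the control and auxin values of a cell type lay much closer together.

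The same H2ac8 bin also met the bin of H4c18, H2ac24 and H4bc24 with 64, 53, 243 and 244 contacts and the bin of H4c9, H2ac11 and H2bc11 with 78, 59, 211 and 229. Only the H4c8 and H2ac8 bins were paired with all 12 bins of the first subcluster in all 4 lists. Bins with linker histone genes ranged widely. H1f2 met 1, 0, 7 and 6 of 10 possible partners, and the bin of H1f4, which also holds the upper edge of the H2bc6 model, met 2, 2, 8 and 7 of 12. The bin of H1f3 with H4c6 met 8, 9, 12 and 12 of 12, and the H1f5 bin with H3c11 met 12, 11, 14 and 15 of 16. The 3 bins that hold only the long H2bc6 gene model, and no member's start, met at most 6 of 12 in any list. The map of contacts between the subclusters shows these columns.

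**Figure D2:**
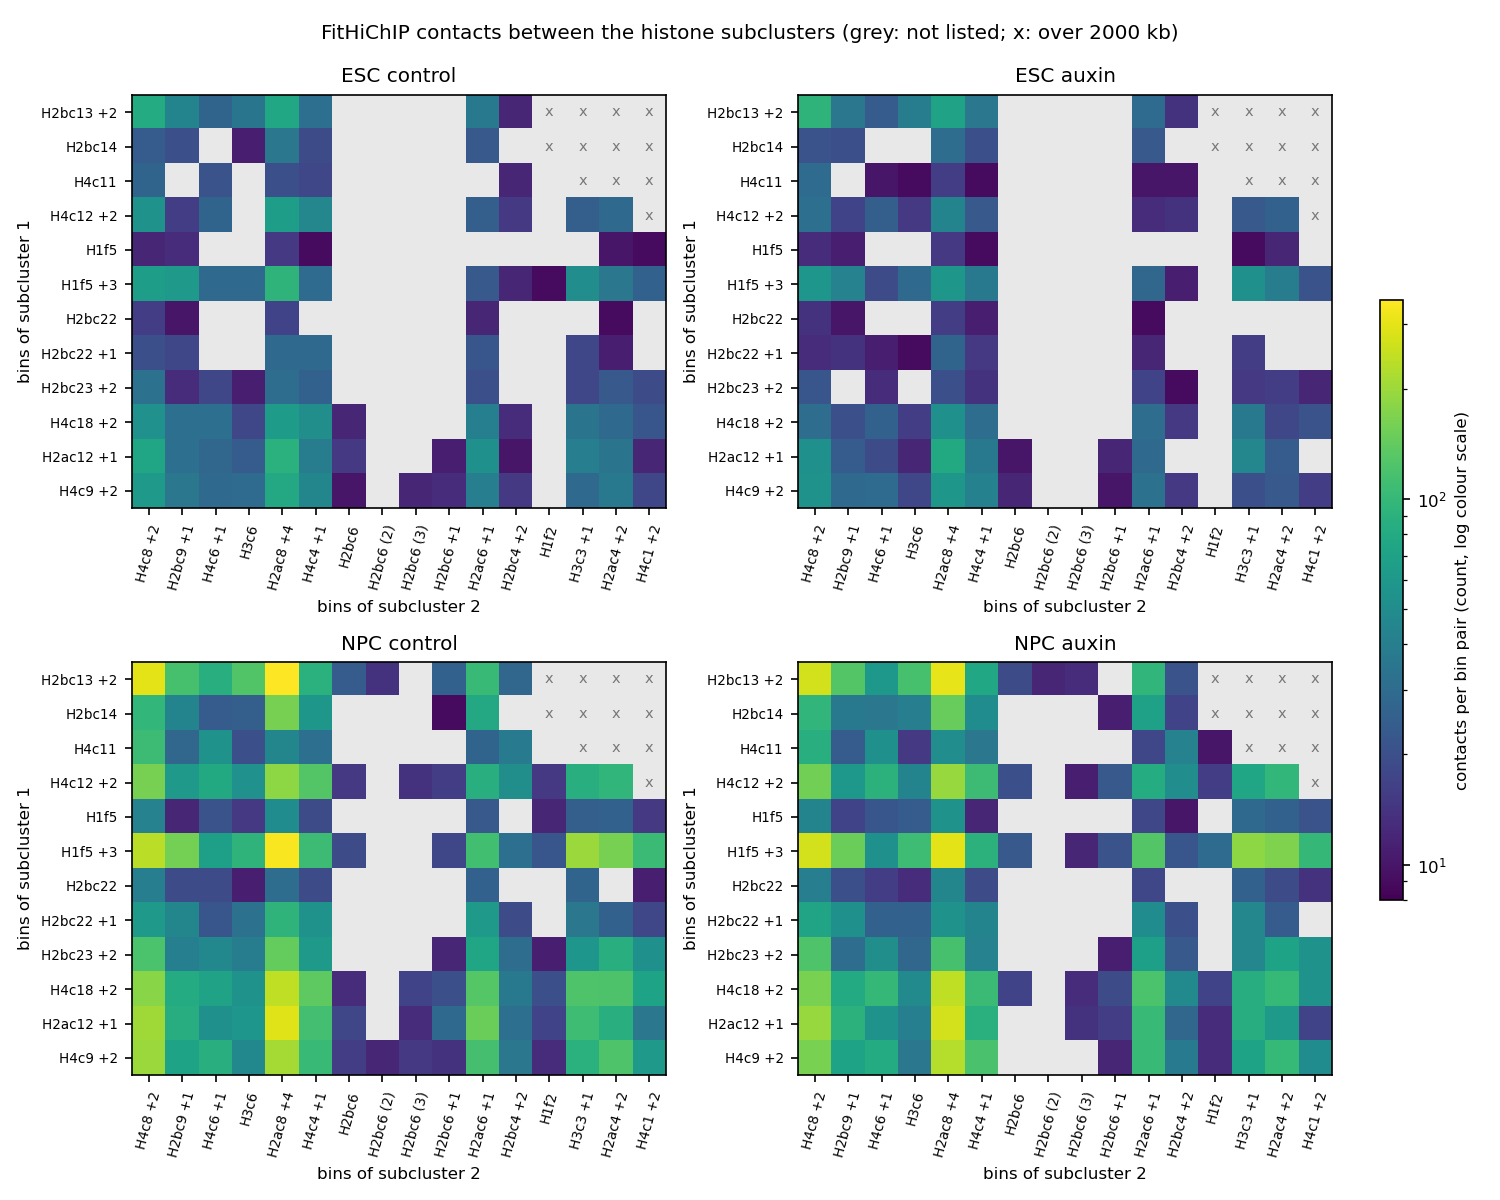
FitHiChIP contacts (colour, log scale) between each bin of subcluster 1 (rows) and of subcluster 2 (columns) in the 4 lists, each bin named by its first gene and the number of further genes. The H4c8 and H2ac8 columns are filled in every list, and NPC values reach 348 against 94 in ESCs. The columns of H2bc6 alone have at most 6 of 12 cells filled in any list.

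At the pairs listed in both cell types the contact counts were higher in NPCs. Over 106 pairs shared by the control lists the median log2 ratio of NPC to ESC counts was 1.51 (quartiles 1.27 and 1.78), and 105 of 106 were higher; over 3041 shared contacts above 1000 kb without a histone bin it was 0.21, with 63.9% higher. Relative to the contacts that the FitHiChIP model expects, the median log2 difference was 0.88 for the histone pairs and -0.27 for the others. With auxin in both cell types, 102 of 102 shared pairs were higher in NPCs (median 1.68), against 64.8% and a median of 0.22 of 2860 others, and the medians relative to expected contacts were 1.01 and -0.44. The median between-subcluster count was 25, 20, 50 and 48, and observed over expected was 16.3, 14.0, 19.2 and 20.1, against 7.91, 8.53, 6.12 and 6.05 over all contacts above 1000 kb. In bulk cells, more cells with a contact and more contact in each cell cannot be told apart.

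Most between-subcluster pairs were listed again with auxin. Of the 107 ESC control pairs, 96 (89.7%, 95% interval 82.3 to 94.8) were listed after auxin, against 74.5% of the 5631 other contacts above 1000 kb. Of the 145 NPC control pairs, 137 (94.5%, 89.4 to 97.6) were listed with auxin, against 53.4% of 6568. Of all histone contacts above 1000 kb, these pairs included, 75.4% of 228 in ESCs and 83.9% of 398 in NPCs were listed again. The between-subcluster pairs had higher observed over expected values than contacts above 1000 kb in general, and the shares were not matched for this. Counts at the shared pairs were slightly lower with auxin, by a median log2 of -0.24 in ESCs (70 of 96 lower, against 38.6% of other contacts above 1000 kb) and -0.10 in NPCs (83 of 137 lower, against 39.7%). The medians of the other contacts were 0.08 and 0.07. In NPCs this direction depends on the scale: observed over expected contacts of the same 137 pairs changed by -0.09, and by 0.053 once the median of all shared contacts was subtracted.

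**Figure D3:**
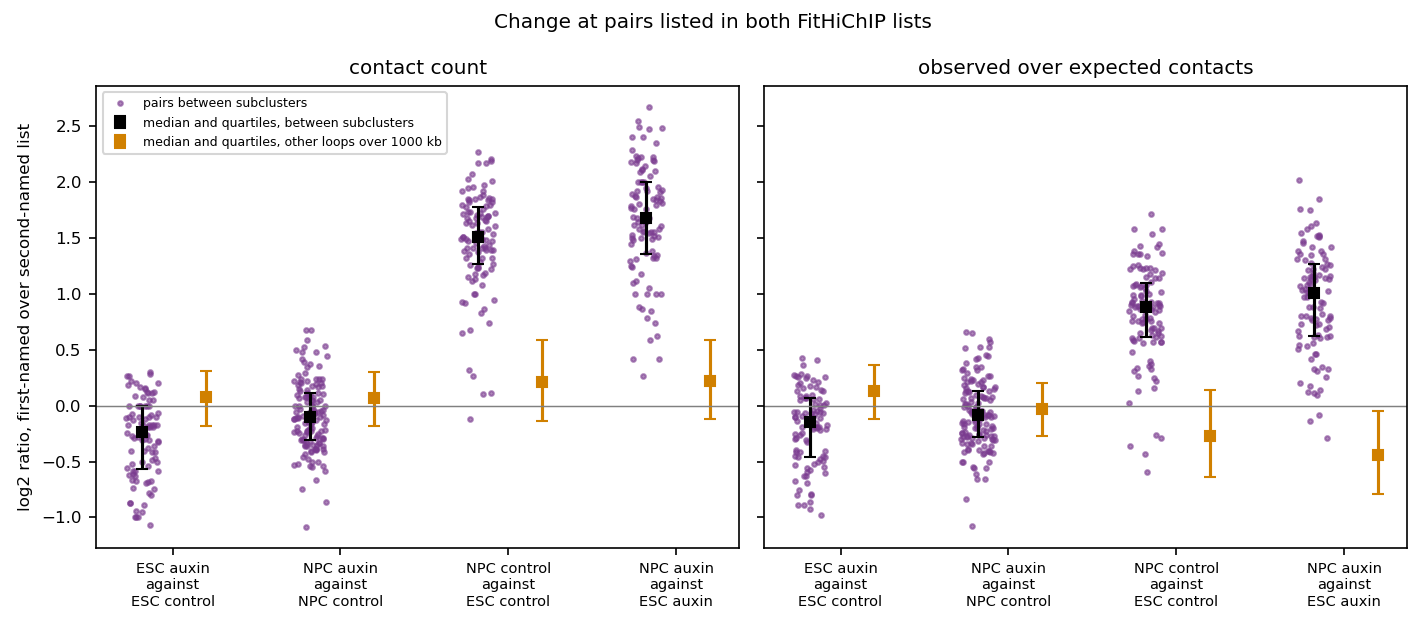
Log2 ratio (y axis) of contact counts (left) and of observed over expected contacts (right) for pairs in both FitHiChIP lists of a comparison (x axis); purple points are pairs between the histone subclusters, squares with bars are medians with quartiles. The NPC-to-ESC medians of the histone pairs are 1.51 and 1.68 in counts, and those of auxin against control are -0.24 and -0.10.

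Reads covering the histone bins followed the same order. In the FitHiChIP lists the median bin had 3722, 3568, 7491 and 7417 reads, over the 27, 25, 28 and 28 bins listed. All 27 bins listed in both controls had more reads in NPCs (78.6% of all bins did), with a median log2 ratio of 0.86 (0.18 to 1.40) against 0.25 over all bins, and 11 of 27 were past 2-fold against 6.67%. The bin of H2ac4, H3c2 and H4c2 had the highest ratio, with 2999 reads in ESC control and 7888 in NPC control. With auxin the median log2 ratio was -0.05 in ESCs and -0.06 in NPCs, against 0.08 and 0.10 over all bins, and no bin moved 2-fold. The part of these reads in the contact counts was not tested beyond the observed over expected values above.

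The callers counted differently at pairs of histone genes, and pairs between subclusters are listed by FitHiChIP alone. At pairs of histone bins in both callers' lists, the FitHiChIP count was a median of 1.29, 1.78, 2.85 and 1.73 times the MAPS count (7, 21, 24 and 29 pairs). At pairs without a histone bin it was 0.983, 1.00, 1.00 and 1.00 times (16945, 7957, 27346 and 10622 pairs). FitHiChIP counts were at least 2 times the MAPS counts in 2 of 7, 8 of 21, 16 of 24 and 14 of 29 histone pairs, against 0.849%, 2.02%, 0.964% and 2.24% of all pairs in both lists. With 1 histone bin the medians were 1.04, 1.10, 1.16 and 1.17. The pair of the H2bc9 and H3c7 bin with the H2ac4, H3c2 and H4c2 bin had 23 MAPS reads and 166 FitHiChIP contacts in NPC control. In contrast, the H2bc4, H1f6 and H4c3 bin with the H3c3 and H2bc3 bin had 185 and 200.

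**Figure D4:**
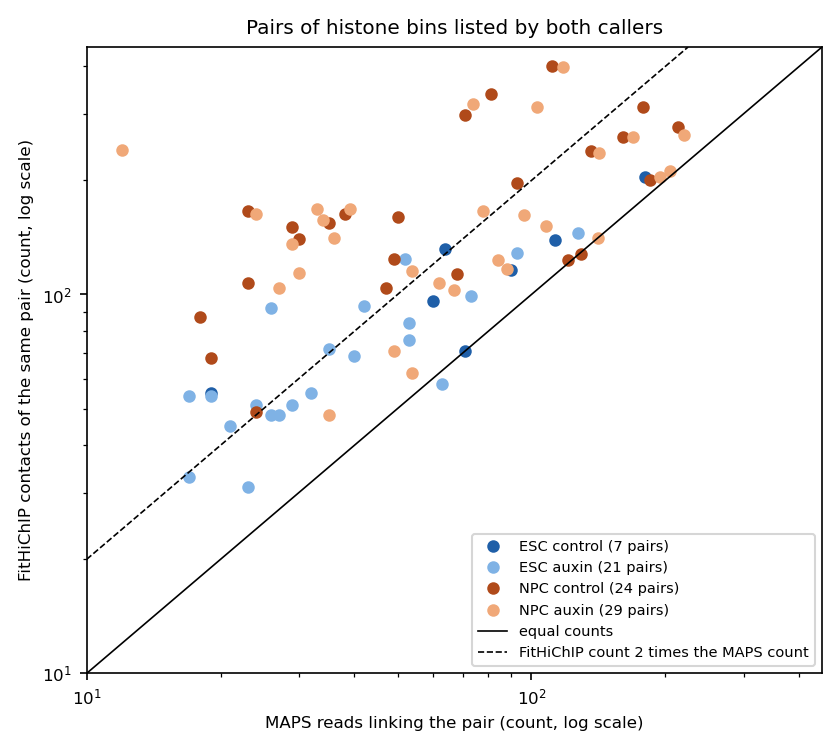
FitHiChIP contacts (y axis) against MAPS reads (x axis) for pairs of histone bins that both callers list, both on log scales, coloured by list. Most points lie above the line of equal counts, and 16 of the 24 NPC control pairs lie above the dashed line at 2 times.

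Core histone genes of 1 type are close copies of one another, though their similarity was not measured here. The sources used here do not say how each caller placed reads that match several of them. The mappability that MAPS lists for a bin had a median of 0.921 over 26 histone bins (0.761 to 0.992) and 0.952 over all listed bins. MAPS listed no contact and no mappability for the 2 bins of H2bc22 with H2bc23 and of H2bc23 with H2ac23 and H4c17, which had 17, 14, 24 and 21 and 13, 12, 18 and 22 FitHiChIP contacts. The part of reads shared by copies in the contacts between histone bins was not tested. Pairs that both callers listed in both cell types allow the NPC and ESC counts to be compared within each caller. At 5 histone pairs of the control lists the median log2 ratio was 0.77 in MAPS (5 of 5 higher) and 1.04 in FitHiChIP, and at 15 pairs of the auxin lists it was 0.95 (12 of 15) and 1.19 (15 of 15). Pairs without a histone bin had 0.30 and 0.31, and 0.36 and 0.35. Relative to the contacts that MAPS expects, the medians lay near 0: over all 8 histone-to-histone pairs shared by the MAPS control lists the median log2 ratio was 0.71 in counts and -0.09 in observed over expected, and over 16 pairs of the auxin lists it was 0.87 and -0.01. Over all shared MAPS contacts observed over expected changed by 0.11 and -0.03. These pairs lie within the subclusters, since MAPS lists none between them. In FitHiChIP, 57 pairs within the subclusters shared by the control lists had medians of 1.31 in counts and 0.21 in observed over expected. For 59 such pairs of the auxin lists these were 1.24 and 0.14. Over all shared FitHiChIP contacts up to 1000 kb observed over expected changed by 0.0063 and -0.11.

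Within the subclusters the callers gave different pictures of auxin in ESCs. MAPS listed 8, 12, 13 and 8 pairs within the first subcluster and 4, 12, 17 and 23 within the second. FitHiChIP listed 27, 28, 30 and 29, and 32, 31, 36 and 41. Of 166 possible pairs at 20 kb or more, MAPS had 49 in any list, 4 in all 4 lists and 20 in a single list, and FitHiChIP had 75, 55 and 10. Relative to list length, MAPS pairs within subclusters were more numerous after auxin in ESCs (12 against 24, log2 2.04, 95% interval 0.98 to 3.17) and in NPCs (30 against 31, log2 1.04, 0.27 to 1.81). FitHiChIP had 59 in both ESC lists, and 66 and 70 in NPCs. Relative to list length, FitHiChIP pairs changed with auxin in ESCs by 0.61 (-0.20 to 1.43) in the first subcluster and 0.51 (-0.25 to 1.27) in the second. In NPCs these changes were 0.81 (0.02 to 1.59) and 1.04 (0.36 to 1.73). These intervals cover counting error only and take contacts as independent, which neighbouring pairs are not.

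The pairs that MAPS added after auxin in ESCs were mostly in both FitHiChIP lists already. Of 8 such pairs in the first subcluster 7 were in the FitHiChIP control list and 8 in the auxin list, and of 9 in the second 6 and 8 were. At those in both, the FitHiChIP count was higher after auxin by a median log2 of 0.15 over 7 pairs (-0.20 to 0.74) and 0.34 over 6 pairs (0.11 to 0.47). Examples are the H4c11 bin with the bin of H4c12, H2ac15 and H2bc15, which MAPS listed in ESC auxin (93) and NPC control (178) only, while FitHiChIP gave 148, 129, 313 and 313. The H2ac8 bin with the H3c3 and H2bc3 bin was absent from MAPS in ESC control and had 52, 111 and 118 reads in the other lists, against FitHiChIP counts of 110, 124, 402 and 398.

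Few pairs within subclusters were in all 4 MAPS lists. The H4c12 bin (chr13:21750001-21760000) met the bin that holds only the part of H1f5 away from its start (chr13:21770001-21780000) with 113, 127, 214 and 220 MAPS reads at 20 kb. The bin of H4c4 and of the H2bc6 promoter printed above met the H2ac6 bin with 60, 53, 93 and 142, and the H1f4 bin met it with 71, 63, 121 and 141. The H2bc13 bin met the H4c9 bin with 19, 29, 30 and 29. In the first 3 of these both NPC values were above both ESC values, and in the last the 2 NPC values lay within 1 read of ESC auxin.

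Other strong MAPS pairs were in some lists only. The H4c8 bin met the bin of H4c4 with 180 reads in ESC control alone, and the H4c4 bin met the H1f4 bin with 205 in NPC auxin alone. The bin of H2bc4, H1f6 and H4c3 met the H3c3 bin with 185 and 195 reads in the NPC lists and was in neither ESC list, while FitHiChIP gave 84, 94, 200 and 204 for it. A pair absent from a list may have missed its threshold narrowly, so absence is no count of 0.

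Contacts of histone bins with other bins were fewer after auxin in the MAPS lists of ESCs. MAPS listed 39, 13, 45 and 37 of them. The change relative to the list was -0.55 (95% interval -1.58 to 0.39) in ESCs, which includes 0, and 0.71 (0.04 to 1.37) in NPCs. FitHiChIP listed 151, 125, 290 and 269. With auxin these changed by 0.29 (-0.07 to 0.64) in ESCs, opposite in sign to MAPS, and 0.75 (0.50 to 0.99) in NPCs. Relative to list length, NPC control exceeded ESC control by a log2 of 0.52 (0.23 to 0.81) in FitHiChIP. In MAPS that change was -0.34 (-0.99 to 0.32). Between the auxin lists the changes were 0.98 (0.66 to 1.29) in FitHiChIP and 0.92 (-0.03 to 1.95) in MAPS.

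The partner bins with most MAPS contacts were a bin without a protein-coding gene inside the first subcluster (chr13:21820001-21830000; 3, 4, 3 and 2), and those of Abt1, a nuclear factor of basal transcription (6, 1, 2 and 0), Trim27 (2, 0, 4 and 2) and Zkscan3, a zinc finger factor (3, 0, 2 and 2). Trim27 is a member of the tripartite motif family. Next came 2 bins without a gene, at chr13:23430001-23440000 (3, 1, 2 and 0) and chr13:21160001-21170000 (1, 0, 2 and 2). The strongest contact of this kind joined the H4c8 bin to the bin at 23430001, with 190, 196 and 328 reads in the first 3 lists, and it was absent from NPC auxin. The H4c8 bin met the Abt1 bin (chr13:23420001-23430000) with 155, 146 and 220, and this too was absent from NPC auxin, in MAPS and in FitHiChIP (161, 159 and 260). In total the H4c8 bin had 4, 4, 2 and 0 MAPS contacts, while its FitHiChIP contacts were 37, 35, 45 and 43.

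The contacts of single bins spread widely, as the plot of contacts per bin shows. In the first subcluster, the MAPS lists gave the H2bc13 bin 16, 7, 20 and 22 contacts, the H2ac12 bin 5, 7, 12 and 8, the H4c11 bin 4, 4, 7 and 8, and the H4c12 bin 5, 4, 5 and 2. The H4c9 bin had 3, 4, 5 and 2 and the H2bc14 bin 2, 4, 5 and 2. FitHiChIP gave the same bins 30, 25, 37 and 36 (H2bc13), 43, 35, 54 and 46 (H2ac12), 10, 13, 21 and 20 (H4c11), 15, 20, 31 and 31 (H4c12), 41, 39, 54 and 48 (H4c9), and 12, 10, 21 and 19 (H2bc14). The H2bc13 bin led in MAPS and the H2ac12 and H4c9 bins, the closest to the second subcluster, led in FitHiChIP.

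In the second subcluster the H2ac6 bin had 2, 4, 8 and 7 MAPS contacts, the H4c4 bin 3, 4, 4 and 7, the H2ac4 bin 0, 4, 5 and 6, the H3c3 bin 0, 2, 4 and 7, and the H2ac8 bin 1, 2, 3 and 6. FitHiChIP gave them 20, 19, 26 and 27, then 21, 23, 29 and 27, then 17, 14, 18 and 23, then 18, 18, 28 and 29, and last 31, 32, 39 and 40. Each of these 5 bins had its fewest MAPS contacts in ESC control. In contrast, the bin at chr13:23590001-23600000, inside the long H2bc6 gene model, had 7, 1, 1 and 1. The H4c8 bin, level with it at 10 MAPS contacts over the 4 lists, had 4, 4, 2 and 0. MAPS listed no contact at 11, 7, 3 and 5 of the 28 bins, and FitHiChIP at 1, 3, 0 and 0.

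**Figure D5:**
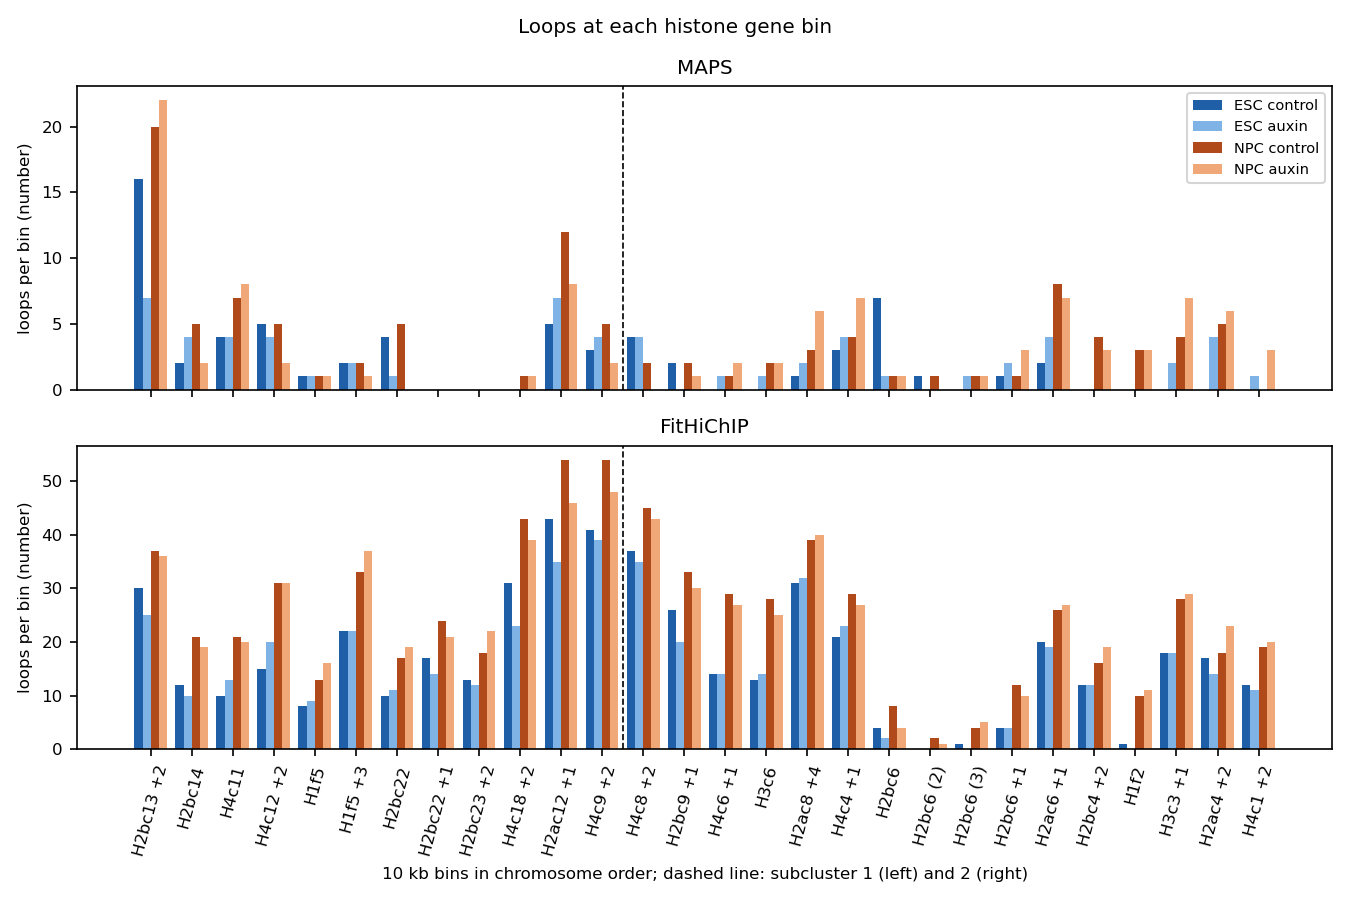
Contacts per histone bin (y axis) in the 4 lists of MAPS (top) and FitHiChIP (bottom), with bins in chromosome order (x axis) named by their first gene and the number of further genes. The H2bc13 bin reaches 22 contacts in MAPS, and the H2ac12 and H4c9 bins reach 54 in FitHiChIP.

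Read against all bins marked as a peak that hold an end of a protein-coding gene, histone bins took a larger share of the MAPS list with auxin. A bin was counted when it had at least 5 contacts over both lists, and called at a 2-fold change of contacts plus a pseudocount of 1, relative to the list totals. In ESCs 7 of 9 such histone bins were 2-fold higher after auxin and 0 lower, against 26.0% and 14.1% of 4695 bins, with median log2 changes of 1.36 and 0.30. In NPCs 6 of 13 were higher and 0 lower, against 18.2% and 15.9% of 6233 bins (0.99 and 0.25), and in number 6 had fewer contacts (76.0%). The 7 bins in ESCs were those of H2bc14, H4c11, H2ac12, H4c9, H4c8, H4c4 and H2ac6, of which H4c11 and H4c8 kept 4 contacts. In number, 5 of the 9 had more contacts after auxin (19.0% of all bins) and 2 fewer (74.0%). Since the MAPS list after auxin was 48.7% as long as the control list in ESCs and 50.3% in NPCs, an unchanged number of contacts counts as a gain of about 2-fold here.

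In FitHiChIP 0 of 22 histone bins were 2-fold higher in ESCs (8.97% of 3066 bins) and 0 lower (12.9%), and 11 of 22 had fewer contacts (66.6%). In NPCs 5 of 23 were higher (17.6% of 4894 bins) and 0 lower (8.13%). Between cell types, 2 of 10 histone bins were 2-fold higher in NPC control than in ESC control in MAPS (18.9%) and 1 lower (15.4%), which is near the background, and 8 of 10 had more contacts (67.2%). With auxin in both, 0 of 12 were higher (19.4%) and 3 lower (19.7%). In FitHiChIP all 23 had more contacts in NPCs than in ESCs, without auxin (67.3% of all bins) and with it (63.2%), while 1 of 23 was 2-fold higher relative to list length without auxin (16.9%), 0 lower (9.55%), and 2 of 23 higher with it (24.9%).

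Taken as 1 set and relative to list length, MAPS histone contacts changed by a log2 of 0.58 (95% interval -0.08 to 1.21) with auxin in ESCs, 0.85 (0.36 to 1.34) in NPCs, 0.01 (-0.52 to 0.55) from ESC to NPC control and 0.28 (-0.31 to 0.90) between the auxin lists. Of the 51 histone contacts of ESC control, 14 (27.5%, 15.9 to 41.7) were called again after auxin, against 22.9% of all contacts and 32.7% of those with a peak at both bins. In NPCs 39 of 75 (52.0%, 40.2 to 63.7) were, against 27.0% and 39.1%. From ESC to NPC control 28 of 51 (54.9%, 40.3 to 68.9) were in both lists, against 50.3%, and from ESC auxin to NPC auxin 22 of 37 (59.5%, 42.1 to 75.2), against 37.8%. The number of histone contacts was lower with auxin in both cell types, and the gain appears when it is read against the list length: scaled by total contacts the changes were -0.49 (-1.14 to 0.15) and -0.34 (-0.83 to 0.16).

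The callers shared more histone contacts than contacts in general when read from the MAPS side. Up to 1000 kb, 24, 25, 50 and 40 histone contacts were in both lists of a group, or 47.1%, 67.6%, 66.7% and 58.8% of MAPS and 27.0%, 35.2%, 48.5% and 43.0% of FitHiChIP histone contacts. Over all contacts the shares were 29.9%, 28.9%, 33.1% and 25.6% of MAPS and 61.4%, 46.9%, 72.2% and 55.8% of FitHiChIP.

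The stretch from 22 to 23 Mb, which is rich in repeats, lies mostly between the subclusters. The first subcluster ends inside it, at 22043658, and the second starts beyond it, at 23531044. This stretch holds 2 histone bins, those of H2ac12 with H2bc12 and of H4c9 with H2ac11 and H2bc11. Of the other genes in the window, 36 are Vmn1r genes, which code for pheromone receptors, and none lay in a bin marked as a peak. Histone contacts with Vmn1r genes numbered 0 in each MAPS list and 1, 1, 2 and 0 in FitHiChIP. Partners in it other than histone bins numbered 1, 2, 1 and 1 in MAPS and 20, 13, 27 and 20 in FitHiChIP. MAPS listed 24 of the 100 bins of the stretch, and their median mappability was 0.915. Without its 2 histone bins, 80, 80, 114 and 116 pairs between the subclusters remained. Without all contacts that end in this stretch, the MAPS change of histone contacts with auxin in ESCs was 0.29 (-0.48 to 1.04) in place of 0.58, and that between the auxin lists was 0.59 (-0.11 to 1.33) in place of 0.28.

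Other gene lists were given by their MAPS contacts, except where FitHiChIP is named. The 17 other genes with histone symbols, which include the germline linker genes H1f7 and H1f8, had 37, 37, 60 and 53 contacts summed over genes. Neighbouring genes of this list share bins and so count the same contacts again: H2ac21, H2ac20 and H2bc21 all had 3, 5, 10 and 9. The 9 replacement histone genes, which are used outside S phase, had 21, 18, 30 and 14. The 10 genes for factors of the histone locus body and of histone mRNA had 25, 15, 51 and 41, among them Casp8ap2 with 5, 0, 11 and 11 and Lsm11, a U7 snRNP subunit, with 8, 8, 17 and 19. Npat itself had 0, 0, 1 and 0. The 6 S phase genes had 19, 6, 28 and 15. After auxin in ESCs, 4 of the 10 locus body and mRNA genes had fewer contacts and 0 had more. Of the 6 S phase genes 4 had fewer and 1 more. Of the replacement histone genes 3 had fewer and 4 more, and of the other genes with histone symbols 6 and 6. Of 4695 marked bins with at least 5 contacts over both lists, 74.0% had fewer and 19.0% more. The genes of these lists were not held to that minimum. In FitHiChIP, 6 of the other genes with histone symbols had fewer in ESCs and 1 more. Of the replacement histone genes 5 had fewer and 3 more (66.6% and 22.5% of marked bins). In NPCs, 7 of the other genes with histone symbols had fewer and 2 more in MAPS, and 13 and 1 in FitHiChIP. The MAPS list after auxin was 48.7% as long as control in ESCs, so their unchanged 37 contacts were a larger share of it.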

How the data were processed

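H3K4me3 PLAC-seq lists of 4 groups were analysed. BWA, Picard and mm10 are named in the submitters' processing notes. Other steps, and any pooling of a group's 2 samples, are not given in the sources used here. Per the file headers, the deposited MAPS lists give a read count, an expected value, their ratio, an FDR (an adjusted p-value, under 0.01) and for each bin a peak mark and mappability. The deposited FitHiChIP lists give contact counts, reads per bin, a q-value and, as a fraction, the share of all contacts that the caller's model expects, and total contacts were the expected count over it. Contact distances were 20 to 1000 kb in MAPS and 20 to 2000 kb in FitHiChIP.

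Members and lists were chosen with earlier results of these data known. Genes were placed by the RefSeq table of GRCm38.p6, and every 10 kb bin that a member overlaps was a member bin (5 genes span 2 or more). Changes are log2 ratios of contacts minus that of list totals, with exact binomial 95% intervals; shares carry exact Clopper-Pearson 95% intervals. Both cover counting error only. No test of conditions was possible, with 1 list per group and caller. The bins and pairs named were, by rule, the 6 bins with most MAPS contacts in each subcluster, the 3 highest MAPS contacts per list, the 5 highest between-subcluster pairs per list and the 6 partner bins with most MAPS contacts; other pairs and bins named were chosen after their values were seen. Alternatives were the caller, neighbouring bins, stricter FDR and q (0.0001), exclusion of 22 to 23 Mb, scaling by total contacts, centring, and 4 settings chosen after seeing the data. The comparison of both callers' counts was also chosen then. The scripts were tested on simulated data. Python 3.11.15, pandas 2.3.3, numpy 2.4.6 and scipy 1.17.1 were used.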

Additional observations from a re-analysis of the deposited data

Results flagged for a closer look

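MAPS pairs within the first histone subcluster changed in opposite directions with auxin in the 2 cell types: the auxin list held 4 more than the control list in ESCs and differed by -5 in NPCs. The difference was not tested, since each value is 1 list against 1 list. FitHiChIP listed 27 and 28 such pairs in ESCs and 30 and 29 in NPCs.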

How the results depend on the processing

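Of 72 alternative values, 49 stayed within the counting interval or quartiles of the reported value or within 1.5 times a reported count, which does not mean that they kept their sign. From ESC to NPC control the change of histone contacts (0.01) was between -0.25 and 0.42 over 7 alternatives, and between the auxin lists (0.28) between -0.0014 and 0.61. Scaled by total contacts, the change of histone contacts with auxin was -0.34 in NPCs and -0.49 in ESCs, both of the opposite sign to the values by list length (0.85 and 0.58); with an FDR under 0.0001 the NPC change was 1.36. The share called again was 73.5% in ESCs and 81.6% in NPCs in FitHiChIP, and 52.9% and 81.3% when each bin could lie 1 bin away. FitHiChIP listed 59, 59, 66 and 70 pairs within subclusters against 12, 24, 30 and 31 in MAPS. Centred contact counts at shared MAPS contacts had median log2 ratios of 0.05 and 0.15 with auxin in ESCs and NPCs, and 0.24 and 0.42 for NPC against ESC without and with auxin. In FitHiChIP these were -0.15, -0.030, 0.88 and 0.92, and for pairs between the subclusters -0.24, -0.10, 1.21 and 1.36. Centred observed over expected contacts of those pairs gave -0.12, 0.053, 0.90 and 1.17. Uncentred, the contact counts at shared MAPS contacts gave -0.056 with auxin in ESCs, of the opposite sign to 0.05. The cause of these moves was not tested, apart from the scaling itself. No paired analysis was possible because each group has 1 list without values per sample, and for the same reason no replicate could be left out. The depth per sample is unknown, so a contact missing from a list cannot be told from one below its threshold.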
